A study of Mus musculus with 6 samples.

Results

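The Argonaute and GW182 genes encode the core of the microRNA silencing complex. They were measured here in mouse embryonic stem (ES) cells that carry or lack Dicer. The set was chosen by name: every probe set (a group of short array probes read together) whose platform annotation named exactly 1 gene, that gene being Ago1, Ago2, Ago3, Ago4, Tnrc6a, Tnrc6b or Tnrc6c. These were 27 of the 45037 probe sets on the arrays that are not controls. Total RNA had been turned into biotin-labelled cRNA and hybridised to Affymetrix arrays, 3 from each of 2 undifferentiated lines. The heterozygous line, D4, is Dicer +/- and keeps 1 intact copy of the gene. The null line is Dicer -/-, called 27H in the sample titles and 27H10 in the series title. Each genotype is 1 line, so genotype and line cannot be told apart, and which part of Dicer was deleted was not given in the labels used here. Whether the arrays of 1 line stem from separate cultures was not given, and the p-values therefore reflect only the spread among arrays, which may be technical.

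Dicer cuts hairpin precursors into microRNAs, and an Argonaute protein holds 1 strand of the product as a guide that pairs with messenger RNAs. Mammals have 4 such Argonautes, of which Ago2 is known as the efficient slicer of fully paired targets. The GW182 proteins, encoded by Tnrc6a, Tnrc6b and Tnrc6c, bind Argonaute through repeated glycine-tryptophan motifs and recruit deadenylases to the target. In Dicer-null ES cells the guides that Dicer makes are missing, while the genes of the proteins that would carry them are still present.

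The arrays were scaled alike, and their RNA carried the markers of ES cells. The mean intensity after trimming 2% of the probe sets at each end was 500.0 on every array, and the median lay between 49.1 and 52.7 in heterozygous and between 44.9 and 46.5 in null arrays. Intensities have no absolute unit, and 3 arrays a line set the precision. Of 8 ES cell markers, 0 were called changed by the rule given below, and their summed intensity was 100237 to 105182 in heterozygous and 93209 to 98355 in null arrays. Of the 8, 6 were lower in null cells, and Utf1 (-0.27) and Tdgf1 (-0.23) passed the adjusted p (limma, 0.00332 and 0.00583), while Nanog was at 0.08 (0.263). Of 6 primitive endoderm markers, 2 fell (Dab2 and Gata6), and their sum was 897 to 1340 against 347 to 407. The 9 fibroblast markers, which feeder cells would bring, summed to 594 to 675 and 602 to 683; Postn was below an intensity of 32 on every array, Col1a1 fell and Dcn rose. Of these 9, 7 were lower in null cells, and without Dcn, left out after its values were seen, the sums were 536 to 656 and 367 to 402. In bulk RNA, fewer cells of a type and less RNA per cell cannot be told apart. The part of these markers in the results below was not tested. Dicer1 itself read 1098 ± 39.2 and 1197 ± 62.2 (limma adjusted p 0.222 over all genes).

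Ago1 and all 3 GW182 genes had probe sets that were higher in null cells, Ago2 had 2 of 4 that were lower, Ago3 had none that passed the test, and Ago4 did not reach the filter. A probe set was tested if it reached an intensity of 32, a log2 value of 5, on at least 3 of the 6 arrays. Of the 27 probe sets, 22 passed, and 0 of them passed through the arrays of a single line. A probe set was called at a limma adjusted p under 0.05 over all 26545 tested probe sets and a log2 difference of at least 1, null minus heterozygous. By this rule 4 of the 22 were higher (18.2%) and 0 lower, against 5.97% of all tested probe sets called higher, 6.32% called lower and 12.3% in either direction. At the adjusted p alone, 11 were higher and 2 lower, where 18.9% and 21.2% of all probe sets were, 40.1% together. The GW182 genes held 10 of the higher ones, out of 14 tested probe sets, and the Argonautes 1 higher and both lower ones out of 8. Arrays of the 2 genotypes were fully separated at 13 probe sets that were higher and 2 that were lower, against backgrounds of 23.6% and 27.7%, or 51.3% in all. The median log2 difference of the 22 was 0.52, against -0.06 over all tested probe sets. These shares count Tnrc6a 8 times, and probe sets of 1 gene share their target, so they are not separate pieces of evidence.

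**Figure D1:**
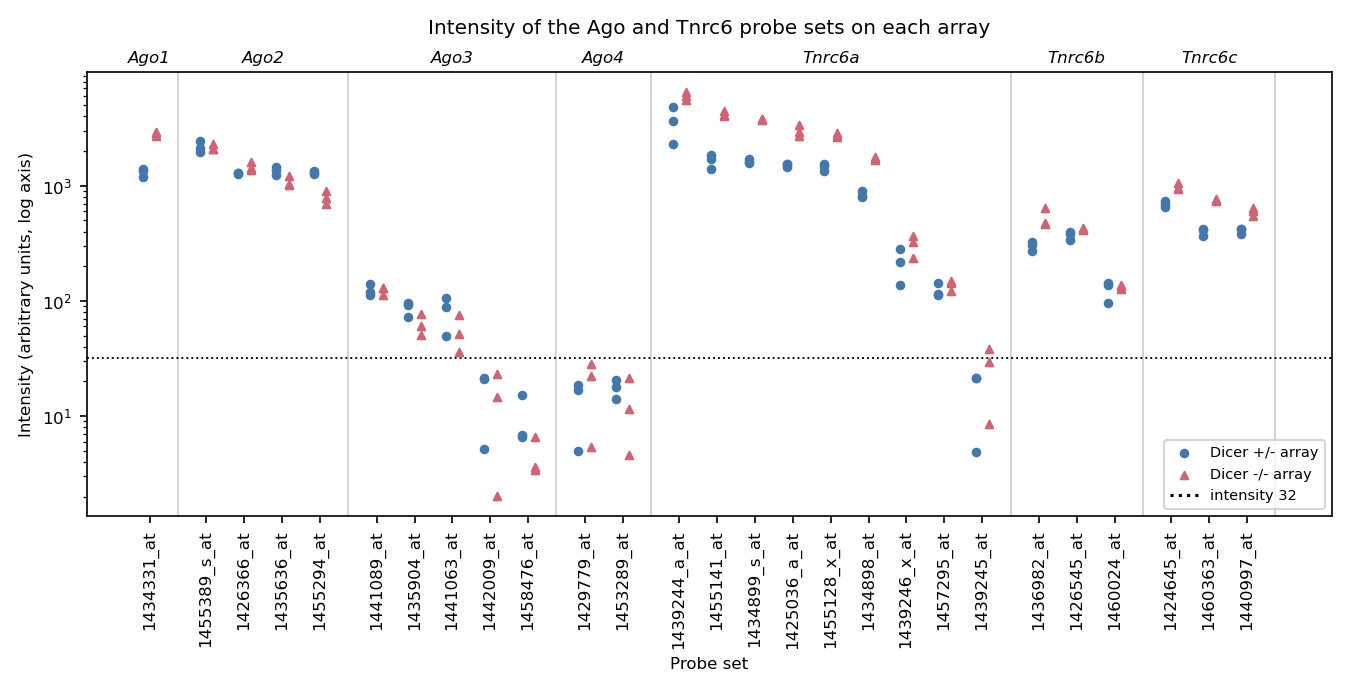
Intensity of all 27 probe sets on each array (arbitrary units, log axis), with heterozygous arrays as circles, null arrays as triangles and the filter of 32 as a dotted line. The null arrays lie above the heterozygous ones for Ago1, for 6 probe sets of Tnrc6a and for all 3 of Tnrc6c. They also do for 1436982_at and 1426545_at of Tnrc6b and for 1426366_at of Ago2. They lie below for 1435636_at and 1455294_at of Ago2, and both Ago4 probe sets lie under 32 throughout.

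Upstream sequences are shown for Ago1 and Tnrc6a, the genes with called probe sets, for Tnrc6c, whose 3 probe sets all passed the adjusted p, and for Ago3, which lies next to Ago1 and did not pass. They are the 250 bases before the annotated start on the gene's own strand, from RefSeq (GRCm38.p6), which held entries for 6 of the 7 genes. Ago1 lies at chr4:126468632-126468881 (minus strand, the more upstream of its 2 annotated starts), Ago3 at chr4:126429543-126429792 (minus), Tnrc6a at chr7:123123635-123123884 (plus) and Tnrc6c at chr11:117654039-117654288 (plus). Capitals mark matches, on either strand, to GGGCGG (the core bound by Sp1), CCAAT (the NF-Y box), TGCGCA and TATAAA (the TATA box). TGCGCA is its own reverse complement and 1 arm of the palindrome bound by NRF1. No match overlaps another in these windows.
Ago1: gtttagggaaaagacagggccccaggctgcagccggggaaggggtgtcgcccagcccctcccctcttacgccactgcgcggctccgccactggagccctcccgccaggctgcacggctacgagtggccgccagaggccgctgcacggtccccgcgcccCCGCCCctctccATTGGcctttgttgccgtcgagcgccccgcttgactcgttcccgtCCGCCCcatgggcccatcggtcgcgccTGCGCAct
Ago3: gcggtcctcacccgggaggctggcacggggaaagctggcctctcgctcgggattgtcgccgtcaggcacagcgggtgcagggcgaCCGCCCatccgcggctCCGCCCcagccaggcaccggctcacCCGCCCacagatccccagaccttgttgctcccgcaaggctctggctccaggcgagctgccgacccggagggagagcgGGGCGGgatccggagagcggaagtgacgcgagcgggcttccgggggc
Tnrc6a: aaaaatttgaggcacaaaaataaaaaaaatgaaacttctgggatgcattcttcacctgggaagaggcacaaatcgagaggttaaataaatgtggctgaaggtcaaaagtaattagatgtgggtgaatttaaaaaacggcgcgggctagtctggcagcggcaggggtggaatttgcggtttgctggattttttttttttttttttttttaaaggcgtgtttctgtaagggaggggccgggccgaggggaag
Tnrc6c: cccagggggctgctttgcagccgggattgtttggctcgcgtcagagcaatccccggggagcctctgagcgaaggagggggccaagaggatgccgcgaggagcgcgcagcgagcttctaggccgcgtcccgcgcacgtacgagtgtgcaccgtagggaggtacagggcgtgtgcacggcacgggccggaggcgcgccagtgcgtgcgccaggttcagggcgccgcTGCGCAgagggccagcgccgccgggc
The Ago1 window holds 2 matches to GGGCGG, 1 to CCAAT and 1 to TGCGCA, and the Ago3 window holds 4 to GGGCGG. Tnrc6c has 1 match to TGCGCA, and Tnrc6a has no match to any of the 4 motifs. Of 32851 mouse promoter windows of the same length, 32.7% hold GGGCGG, 33.8% CCAAT, 6.43% TGCGCA and 12.4% TATAAA. Ago1, Ago3 and Tnrc6c are rich in G and C (72.4%, 73.6% and 72.4%, with 26, 27 and 31 CpG pairs), whereas Tnrc6a has 42.4% and 9 CpG pairs, beside medians of 52.4% and 6. A match describes letters and is not a bound site.

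Ago1, which encodes an Argonaute known mainly for silencing without cutting, was higher in null cells by 2.16-fold. Its single probe set, 1434331_at, read 1399, 1353 and 1199 on the heterozygous arrays and 2954, 2869 and 2681 on the null arrays. The lines did not overlap: the lowest null array was above the highest heterozygous array. The log2 difference was 1.11 ± 0.08 (SE), with a 95% interval of the fold of 1.90 to 2.45, and the limma adjusted p was 4.25e-06. It was called in all 20 alternatives, at 1.04 to 1.26, and no other probe set of the gene was there to compare.

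Ago1 lies between Ago3 and Ago4 on mouse chromosome 4, and the rise was not seen in the tested genes around it. The order in the annotation of GRCm38.p6 is Tekt2, Ago3, Ago1, Ago4 and Clspn. Of the 3 nearest tested genes on each side, Ago3 among them, 0 were higher and 1 (Adprhl2, at -0.38) was lower at an adjusted p under 0.05, and their log2 differences ran from -0.64 to 0.13. Clspn, which encodes the checkpoint mediator claspin, was at -0.16 ± 0.10 (SE; limma adjusted p 0.197). The median over the 816 tested genes of chromosome 4 was -0.06.

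Ago3, which encodes another Argonaute, was dim. Its brightest probe set, 1441089_at, read 113, 141 and 121 on heterozygous and 128, 114 and 130 on null arrays, a log2 difference of -0.01 with a 95% interval of -0.43 to 0.42 (limma adjusted p 0.984). The lines overlapped at this probe set and at the others that were tested. Those were 1435904_at, at -0.49, and 1441063_at, at -0.59, with adjusted p values of 0.204 and 0.277 and intervals that reach from -1.13 to 0.15 and from -1.47 to 0.30. The remaining pair stayed under 32 on every array. A 2-fold fall of Ago3 lies inside the intervals of the last 2 and outside that of the brightest.

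Ago4, the last Argonaute of the cluster, was under the filter in both lines. Probe set 1429779_at lay between 4.96 and 28.6 and 1453289_at between 4.64 and 21.5 over the 6 arrays. Neither was tested in the main fit. When no filter was applied their log2 differences were 0.38 and -0.72, at limma adjusted p values of 0.861 and 0.673.

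The probe sets of Ago2, the slicer, disagreed with each other. The brightest, 1455389_s_at, read 1974, 2132 and 2443 on heterozygous and 2076, 2068 and 2285 on null arrays, and the lines overlapped. Probe set 1426366_at read 1301, 1301 and 1273 against 1431, 1365 and 1606, with every null array above every heterozygous one. The remaining readings went the other way. Probe set 1435636_at read 1362, 1251 and 1452 on heterozygous and 1010, 1038 and 1207 on null arrays, and 1455294_at read 1352, 1272 and 1298 against 787, 697 and 904. In both, the null arrays were below all heterozygous arrays.

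In log2 terms the Ago2 probe sets ran from a small gain to a clear loss. Their differences were -0.02 ± 0.09 for 1455389_s_at, 0.18 ± 0.08 for 1426366_at, -0.32 ± 0.10 for 1435636_at and -0.72 ± 0.10 for 1455294_at (SE). The adjusted p values from limma were 0.87, 0.116, 0.0229 and 0.000312. The largest, a fall of 1.65-fold with an interval of 0.52 to 0.71 for null over heterozygous, stayed short of the 2-fold threshold. The log2 ratio of 1426366_at to 1455294_at within an array was -0.02 ± 0.05 across heterozygous arrays and 0.89 ± 0.07 across null arrays (SD, n = 3). That ratio, and those of the other 5 pairs of Ago2 probe sets, did not overlap between the lines, each at an exact permutation p of 0.1 (two-sided), the smallest that 3 arrays against 3 allow. Over all genes, 27.3% of pairs of tested probe sets of 1 gene were separated in this way. Probe sets 1455389_s_at and 1435636_at were designed from the same sequence record and still differed in this way, and the ending _s_at marks probes shared by several transcripts. Which part of the transcript each probe set reads was not given in the tables used here, so the change in total Ago2 messenger RNA has no single value. The fall of 1435636_at did not pass the adjusted p with arrays centred on the median of all probe sets (-0.17, limma adjusted p 0.217). Nor did it pass in the fit without an intensity trend (0.0785). It also did not pass without heterozygous replicate 1 or 3 or null replicate 1 or 2 (adjusted p 0.0626 to 0.0799). With arrays centred on the median of all probe sets, 1426366_at passed as higher (0.34, adjusted p 0.0154). Centred on the median of tested probe sets, 1426366_at did not pass (0.18, limma adjusted p 0.104) and 1435636_at did (-0.32, 0.0189). Of the 6 nearest tested neighbours of Ago2, 1 was higher and 2 were lower at the adjusted p, and the median was -0.50. Trappc9 was at 0.61, Slc45a4 at -0.75 and Chrac1 at -0.43 (limma adjusted p 0.00151, 4.68e-05 and 0.0185).

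**Figure D2:**
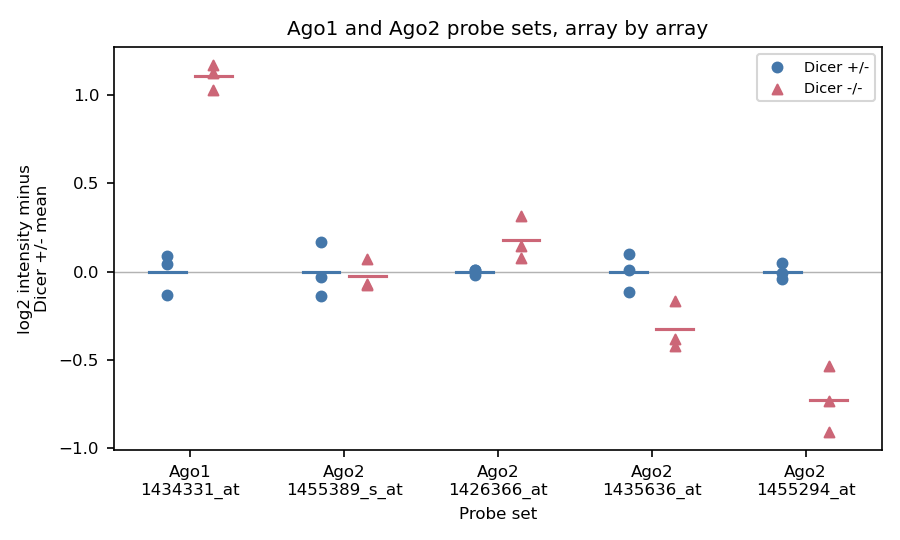
Log2 intensity of each array minus the heterozygous mean of the same probe set, for Ago1 and the 4 probe sets of Ago2 (short lines are group means). Ago1 lies 1.11 above, and the Ago2 probe sets spread from 0.18 above to 0.72 below.

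Tnrc6a, which encodes GW182 itself, the founding member of its family, rose at 6 of its 8 tested probe sets. Probe set 1455141_at read 1719, 1407 and 1846 on heterozygous and 4011, 4139 and 4498 on null arrays. Probe set 1434899_s_at read 1617, 1695 and 1561 against 3724, 3797 and 3770, and 1434898_at read 897, 813 and 802 against 1760, 1702 and 1672. These 3, designed from 1 sequence record, did not overlap between the lines and were the called ones. Their folds were 2.56, 2.32 and 2.05, with log2 differences of 1.35 ± 0.10, 1.21 ± 0.07 and 1.03 ± 0.08 (SE) and limma adjusted p values of 4.15e-06, 6.9e-07 and 6.09e-06.

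Probe sets of Tnrc6a from other records rose as well. Probe set 1425036_a_at read 1445, 1559 and 1532 on heterozygous and 2900, 2720 and 3345 on null arrays, a fold of 1.97. Probe set 1455128_x_at read 1554, 1476 and 1339 against 2888, 2660 and 2765, a fold of 1.91. Both passed the adjusted p (1.42e-05 and 1.07e-05) without reaching 2-fold. The brightest, 1439244_a_at, was uneven among heterozygous arrays, at 3640, 4862 and 2319, against 6488, 5989 and 5573 in null cells. Its difference was 0.80 ± 0.21 (SE; limma adjusted p 0.0104), at 0.51 without heterozygous replicate 3 and 1.05, past both thresholds, without heterozygous replicate 2, and its adjusted p was 0.0822 in the fit without an intensity trend. The dimmer 1439246_x_at (0.57) and 1457295_at (0.16) did not pass, with adjusted p values of 0.104 and 0.563, and 1439245_at did not reach the filter. Over the 8 tested probe sets of Tnrc6a the log2 difference ranged from 0.16 to 1.35, with a median of 0.95.

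Around Tnrc6a on chromosome 7 the neighbours were mixed. Slc5a11, which encodes a sodium-coupled inositol transporter and is the next tested gene, was at 1.16 ± 0.17 (SE; limma adjusted p 0.000162). Rbbp6, on the other side, was lower (-0.66, adjusted p 0.0219), and the median over the chromosome's 1031 tested genes was -0.11.

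Tnrc6b, the GW182 paralog on chromosome 15, rose at 1 of 3 probe sets. Probe set 1436982_at read 326, 271 and 308 on heterozygous and 469, 476 and 642 on null arrays, 1.74 times higher (log2 difference 0.80 ± 0.15, SE; limma adjusted p 0.00147). Every null array was above the heterozygous ones, with the third null array the highest. The other probe sets, 1426545_at and 1460024_at, differed by 0.19 and 0.12 with adjusted p values of 0.214 and 0.694. For 1426545_at the arrays still did not overlap, at 378, 340 and 398 against 428, 415 and 425. The ratio of 1436982_at to each of the others changed without overlap between the lines (by 0.61 and 0.68 on the log2 scale, exact permutation p 0.1, two-sided, the smallest possible). The ratio of 1426545_at to 1460024_at overlapped (p 0.8, same test). Pairs of probe sets were also separated in Tnrc6a (12 of 28) and Tnrc6c (2 of 3), beside 27.3% of such pairs over all genes. Ago2 lies on the same chromosome, where the median of 500 genes was -0.11.

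Tnrc6c, the third GW182 paralog, rose modestly at all 3 of its probe sets. Probe set 1460363_at read 417, 421 and 364 on heterozygous and 733, 751 and 760 on null arrays, 1.87 times higher (limma adjusted p 6.35e-05). Probe set 1424645_at, from the same sequence record, read 698, 650 and 731 against 928, 952 and 1055, and 1440997_at read 421, 384 and 424 against 549, 636 and 600.0. The folds of the last 2 were 1.41 and 1.45 (adjusted p 0.00187 and 0.00251). In each, all null arrays lay above all heterozygous arrays, and none reached the 2-fold threshold.

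The genes around Tnrc6c on chromosome 11 were higher too. The 3 nearest tested genes on each side had log2 differences between 0.42 and 0.57 with a median of 0.50, and 4 of the 6 passed the adjusted p, all of them higher. Septin9, which encodes a septin of the cytoskeleton, was at 0.51 ± 0.07 and Sec14l1 at 0.56 ± 0.08 (SE; limma adjusted p 9.57e-05 and 0.000167), beside 0.50 ± 0.09 for the brightest Tnrc6c probe set. The other Tnrc6c probe sets, 1460363_at and 1440997_at, were at 0.90 ± 0.10 and 0.54 ± 0.11 (SE). The median over the 1097 tested genes of chromosome 11 was 0.29, with 40.7% of them higher at the adjusted p against 24.5% of all genes. Less that median, the Tnrc6c probe sets 1424645_at, 1460363_at and 1440997_at were at 0.21, 0.61 and 0.25. The part of this shift of the chromosome in the rise of Tnrc6c was not tested.

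**Figure D3:**
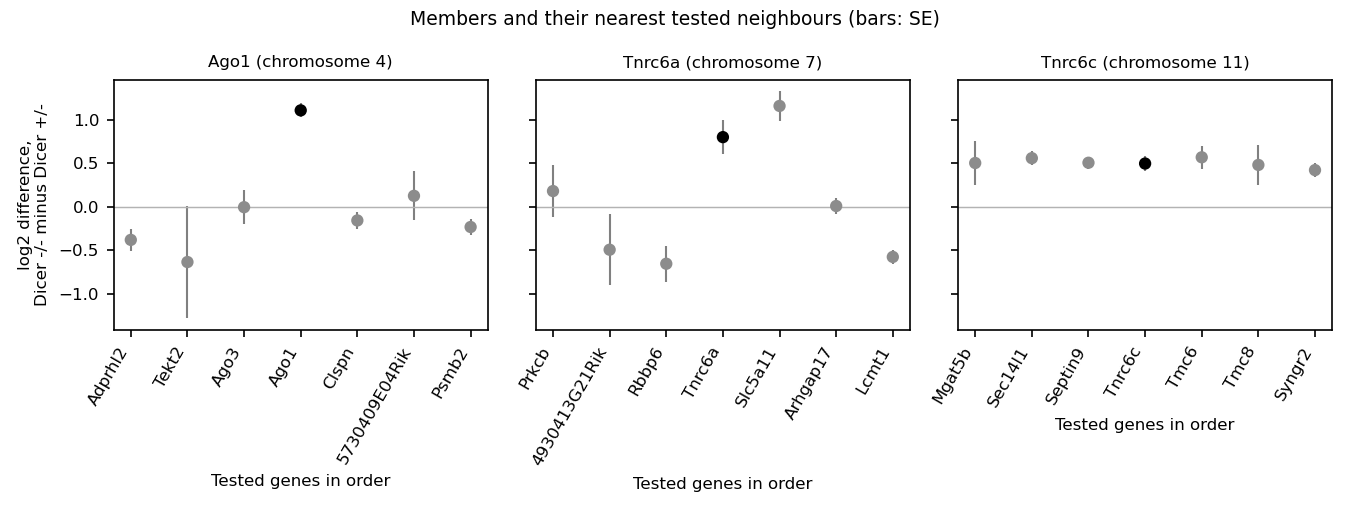
Log2 difference (null minus heterozygous, bars are SE) of Ago1, Tnrc6a and Tnrc6c (black) and of the 3 nearest tested genes on each side (grey), in annotated order. Ago1 stands above neighbours at -0.64 to 0.13, Tnrc6a has mixed neighbours, and the brightest Tnrc6c probe set, at 0.50, lies among neighbours at 0.42 to 0.57. The other Tnrc6c probe sets, not drawn, were at 0.90 and 0.54.

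**Figure D4:**
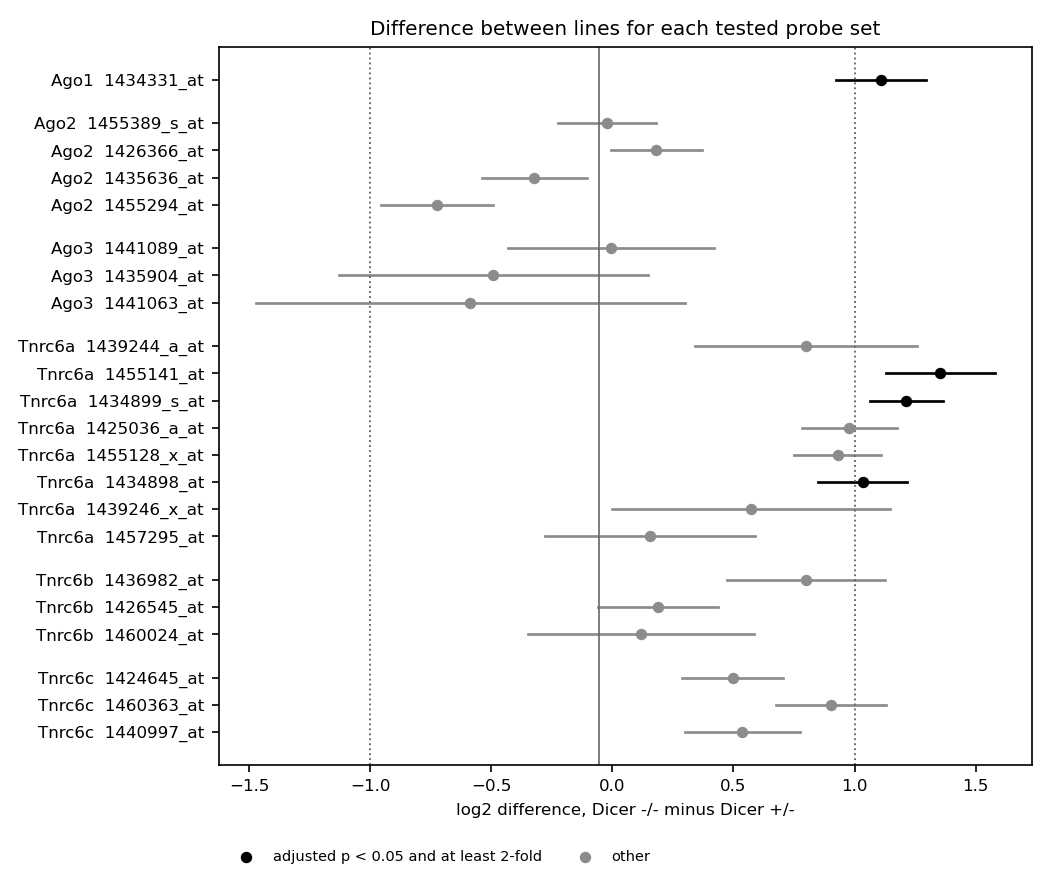
Log2 difference, null minus heterozygous, of the 22 tested probe sets with 95% intervals. Black marks the 4 called ones, dotted lines the 2-fold threshold and the solid line the median over all tested probe sets (-0.06); all 14 GW182 probe sets lie above 0 (1460024_at of Tnrc6b was at -0.065 without heterozygous replicate 3), Ago2 lies on both sides and Ago3 from -0.59 to -0.01.

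The GW182 family and the Argonautes were compared as ratios within an array, which scaling of whole arrays cannot move. Each gene was represented by its brightest probe set, which left 6 genes and 15 pairs, Ago4 being under the filter. The pairs reuse the same 6 probe sets, so they are not separate pieces of evidence. In 10 pairs the ratio did not overlap between the lines, beside 54.2% of all pairs of tested genes, each at the smallest exact permutation p of 0.1 (two-sided; 0.15 after Benjamini-Hochberg adjustment over the pairs), so 0 pairs could pass a threshold of 0.05, adjusted or not. The ratio of Ago1 to Ago2 rose by 1.13 and that of Ago1 to Ago3 by 1.11 on the log2 scale. The ratios of Ago2 to Tnrc6a and to Tnrc6b each changed by -0.82. Ago1 against Tnrc6a changed by 0.31, with overlapping arrays (p 0.4, exact permutation test), as did Ago1 against Tnrc6b. These ratios hold for the brightest probe sets, and another choice for Ago2, Tnrc6a or Tnrc6b moves them by the spread among that gene's probe sets.

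At the level of genes, each represented by its brightest probe set, 1 of the 6 tested members was called, Ago1, against 7.23% of 12927 genes called higher and 13.4% called either way. At the adjusted p alone 4 were higher (Ago1, Tnrc6a, Tnrc6b and Tnrc6c) and 0 lower, against backgrounds of 24.5% and 24.3% (48.8% in all), and the median was 0.65 against -0.01. The choice of probe set decided some of this. Without probe sets whose names end in _x_at, _s_at or _a_at, which share sequence, Tnrc6a was represented by 1455141_at (1.35) and was called, and Ago2 by 1426366_at (0.18; limma adjusted p 0.092). As means over their probe sets, Ago2 was at -0.22 (adjusted p 0.0471), Ago3 at -0.36 (0.206), Tnrc6a at 0.88 and Tnrc6b at 0.37. Tnrc6b did not pass with quantile normalization or without any 1 of the null arrays (0.18 to 0.20, adjusted p 0.20 to 0.284), settings in which its other probe set was the brighter. Its value for 1436982_at itself stayed between 0.65 and 0.95.

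The wider pathway was read from 6 lists of 69 genes, of which 63 were tested, 3 had no probe set of their own and 3 were under the filter. Over all lists 2 genes were called higher and 1 lower (3.17% and 1.59%), where 7.23% and 6.20% of all tested genes were. At the adjusted p alone 9 were higher (14.3%) and 21 lower (33.3%), against 24.5% and 24.3% of all genes. The median log2 difference was -0.04, against -0.01 over all genes.

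By brightest probe sets, the called genes were all on the list of Argonaute regulators and partners, where Lin28a had been placed. Mov10, an RNA helicase that binds Argonaute, rose from 985 ± 71.0 to 2969 ± 144 (SD, n = 3), 3.02 times higher (limma adjusted p 6.62e-08). Its second probe set, 1447376_at, was near the floor and at -0.09, so the mean over both was 0.75 and not called. Ppp6c, the catalytic subunit of the phosphatase that in human cells removes phosphates from Ago2, rose from 924 ± 22.3 to 2462 ± 263, a fold of 2.65. Its other probe set rose by 0.78, which represents the gene without null replicate 2 (0.83, not called). Lin28a, which blocks let-7 maturation, fell 5.91-fold (adjusted p 5.48e-09), with its other probe set at -1.85. Of the 17 tested genes of this list, 5 fell (29.4%) and 3 rose (17.6%) past the adjusted p, near the shares over all genes, and the median was -0.04.

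On the lists of genes that make or load the guides, which did not hold Lin28a, 0 were called by their brightest probe sets. Of 9 biogenesis genes, 2 were lower at the adjusted p, against 24.3% of all genes. Tarbp2, a partner of Dicer, was at -0.68 ± 0.08 (SE; limma adjusted p 5.02e-05), with its other probe set at -1.45, and was called lower when both were averaged (-1.06). In the same list, Xpo5, which exports precursors from the nucleus, was at -0.52 ± 0.09. Of 8 tested chaperones that load Argonaute, 2 were lower at the adjusted p, the co-chaperones Fkbp5 (-0.33) and Ahsa1 (-0.32), and 0 were called. The medians of these lists, -0.06 and 0.01, were within 0.1 of that over all genes.

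GW182 recruits deadenylases and binds poly(A)-binding protein. Of 14 tested genes of the deadenylases and poly(A)-binding proteins, 0 were called, while 5 rose (35.7%) and 4 fell (28.6%) past the adjusted p, beside 24.5% and 24.3% of all genes. Cnot6, a catalytic deadenylase of CCR4-NOT, read 1970 ± 126 and 3656 ± 47.6 (SD, n = 3), 1.86 times higher in null cells, and its other probe sets 1426682_at, 1426684_at and 1426685_a_at were at 2.24, 1.97 and 0.69, and when its probe sets were averaged (1.45) the gene was called. Pabpc4, a poly(A)-binding protein, fell from 6534 ± 472 to 3510 ± 138, at -0.89 ± 0.07 (SE; limma adjusted p 1.64e-06), or -1.05 at its other probe set. Of 14 genes of decapping and translational repression, 8 fell (57.1%) and 1 rose (7.14%) past the adjusted p, against 24.3% and 24.5% of all genes, 0 were called, and the median was -0.28. Lsm1, a subunit of the ring that binds decaying ends, was at -0.78 ± 0.08 and the low-intensity exonuclease Xrn1 at -0.90 ± 0.31 (adjusted p 1.62e-05 and 0.0301). The other Xrn1 probe set, 1450308_a_at, was of similar intensity and at -0.36 (limma adjusted p 0.513), so the fall of Xrn1 rests on 1442141_at. With arrays centred on the median of all probe sets the median of the decapping list was -0.13, against 0.14 over all genes. Centred on the median of tested probe sets it was -0.28, against -0.01. Piwil2, the 1 tested gene of the PIWI clade, a germline branch of the Argonaute superfamily, read 144 ± 15.8 and 188 ± 22.6 (adjusted p 0.0931).

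**Figure D5:**
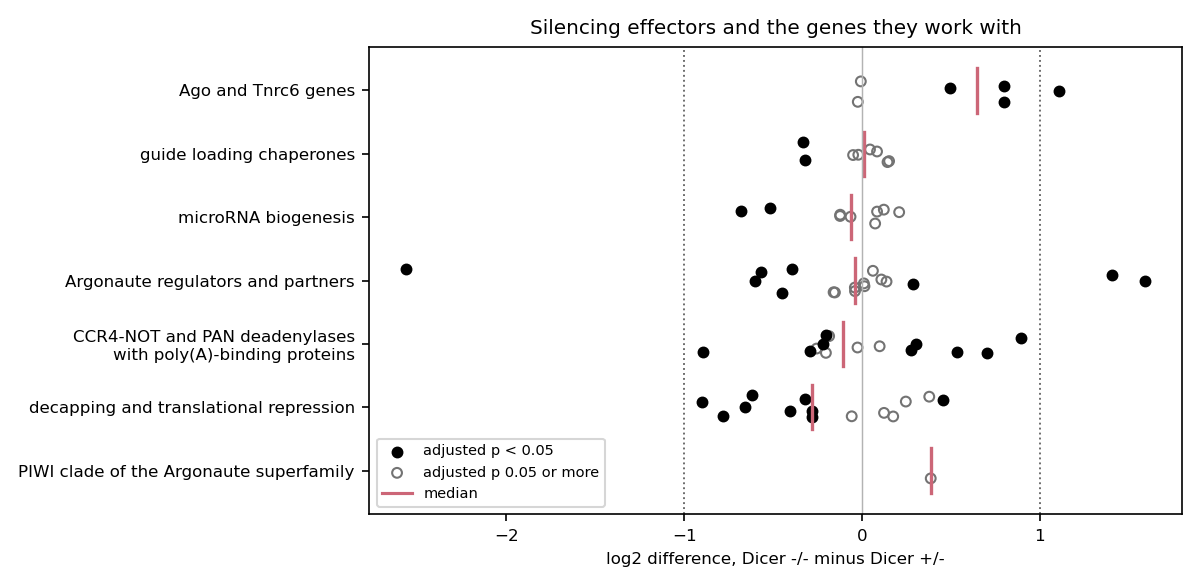
Log2 difference, null minus heterozygous, of the tested genes of each list (filled: adjusted p under 0.05, open: not, line: median, dotted: 2-fold; vertical position within a row is arbitrary). The Ago and Tnrc6 genes have a median of 0.65, and the medians of the lists that hold more than 1 tested gene lie between -0.28 and 0.01.

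The genes that most closely followed the brightest probe sets of Ago2 and Tnrc6a over the 6 arrays were picked as a description. The measure was the Pearson correlation of log2 values among the 12927 genes. For Ago2 (1455389_s_at) they were Rnf17 (r = 0.990), Fuca1 (0.990) and Ung (0.984), none of which passed the test between the lines. For Tnrc6a (1439244_a_at) they were Atp6v0e2 (0.994), Napsa (0.993) and Itgb5 (0.991), with log2 differences of 0.27, 0.59 and 0.16. None of these passed either (limma adjusted p 0.153, 0.109 and 0.142). Probe set 1455389_s_at itself correlated with the other Ago2 probe sets at only 0.11, 0.45 and 0.19. For 1439244_a_at, the correlations with the other tested Tnrc6a probe sets ran from 0.67 (1455141_at) to 0.84 (1455128_x_at). The named genes were picked to follow 1 probe set and need not follow the gene's others. The 6 points share their array scaling, and the heterozygous arrays of this Tnrc6a probe set had a coefficient of variation of 35.3%.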

How the data were processed

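The deposited table held 1 intensity for each of 45101 probe sets on 6 arrays. Per the values themselves, the authors' intensities are linear and scaled to a common trimmed mean; per the submitters' processing notes GCRMA was used, at a step that the sources used here do not give. No detection calls were used.

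The 64 control probe sets were left out and values were turned into log2. Probe sets passing the filter (log2 of 5 on 3 arrays) were fitted with limma 3.58.1 in R 4.3.3 (lmFit; eBayes, trend = TRUE; two-sided tests). The design held group alone, with Benjamini-Hochberg adjustment over all tested probe sets. A second fit took each gene's brightest probe set with a single symbol. Ratios within arrays were tested by exact permutation. The fit was tested on simulated data. Named were all member probe sets, up to 2 genes a pathway list by size of change, and the 3 genes most correlated with Ago2 and with Tnrc6a; Ppp6c, Piwil2, the markers, second probe sets and chromosomal neighbours were added after values were seen. Gene order comes from the table of GRCm38.p6. The members and lists were chosen with earlier results of these data known. Alternatives were filters, variance priors, normalizations, offsets, array weights, thresholds, probe set choice, the replicate block and leaving out arrays. Replicate numbers were not taken as pairs: deviations of same-numbered arrays correlated at 0.03, 0.03 and 0.08 over 12927 genes.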

Additional observations from a re-analysis of the deposited data

How the results depend on the processing

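Over 20 alternatives, Ago1 (1.04 to 1.26) and the Tnrc6a probe sets 1455141_at (1.24 to 1.51), 1434899_s_at (1.18 to 1.37) and 1434898_at (1.0025 to 1.19) were called in every setting run, and 0 member probe sets were called lower at 2-fold. The lowest value of 1434898_at, without heterozygous replicate 3, was barely above the threshold of 1. The count of 4 called member probe sets, all higher, was 7 with arrays centred on the median of all probe sets, which added 1425036_a_at and 1455128_x_at of Tnrc6a and 1460363_at of Tnrc6c. At the adjusted p alone it was 13, with 11 higher and 2 lower, and the 1 called gene became 4; that threshold has no limit on size. The gene count was 2 without probe sets that share sequence. Leaving out arrays gave 4 to 6 called probe sets (6 without heterozygous replicate 2), 1 to 2 called genes (2 without the same array), 9 to 11 pairs without overlap, and 2 to 4 called pathway genes (1 to 2 higher, 1 without null replicate 2; 1 to 2 lower, 2 without heterozygous replicate 3). Pathway calls, 3 as reported (2 higher, 1 lower), were 30 at the adjusted p alone (9 higher, 21 lower) and 6 as means over probe sets (3 lower). With arrays centred on the median of all probe sets 4 were called, 3 of them higher. Lower calls were 2 with array weights and 2 without probe sets that share sequence. Values near 0 changed sign. Ago2 1455389_s_at did so when centred on the median of all probe sets (0.13) and over left-out arrays (-0.092 to 0.061). Ago3 1441089_at did so with quantile normalization (0.033), the same centring (0.15) and over left-out arrays (-0.075 to 0.085). Tnrc6b 1460024_at did so over left-out arrays (-0.065 to 0.22). The gene values of Ago2 and Ago3 are those of these probe sets, except that Ago2 stood at 0.18 when probe sets sharing sequence were dropped and that averaging probe sets gave -0.22 for Ago2 and -0.36 for Ago3 (limma adjusted p 0.0471 and 0.206). The causes were not tested. With the replicate block, 4 member probe sets were called, as without it, and it changed no other call on the members. Low intensities limit Ago3 and Ago4.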
